A study of Mus musculus with 8 samples.

Results

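The genes of oxidative phosphorylation were followed in sorted mouse brain cells, separately for those encoded in the nucleus and those encoded in mitochondrial DNA. Members were taken by gene symbol from the 53507 gene rows of the count tables. The rule kept symbols that start with Nduf, Cox4 to Cox8, Uqcr or Atp5, the 4 genes Sdha to Sdhd, and the mitochondrial mRNAs, and left out 8 rows whose names contain "-ps". It found 105 members, of which 92 are nuclear and 13 mitochondrial. By complex, the nuclear members comprised 36 of complex I, 8 complex I assembly factors named Ndufaf, 4 of complex II, 8 of complex III, 20 of complex IV, 15 of complex V and Atp5s. Ndufa4 and its isoform Ndufa4l2 were counted with complex IV.

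Oxidative phosphorylation is carried out in the inner mitochondrial membrane. Complexes I to IV pass electrons from NADH and succinate to oxygen, and of these complexes I, III and IV pump protons. Complex V, the ATP synthase, uses the proton gradient to make ATP. Complex II is built from nuclear genes alone, while the other complexes combine nuclear subunits with subunits made inside the mitochondrion, so 2 genomes supply the parts of the same machines. In the brain, neurons depend on this pathway for most of their ATP, and neural progenitors and astrocytes are known for a larger use of glycolysis.

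The series holds 8 libraries in 4 groups of 2, from tdTomato+ cells of the brain, labelled as progenitors. The groups are embryos labelled wt at embryonic day 13 (E13), embryos labelled wt at embryonic day 15 (E15), pups at postnatal day 12 (P12) after hypoxia, and pups at P12 from normoxia. Hypoxia meant 10% oxygen between P3 and P11, 8 days in all, and nursing females were swapped between the arms during that time. No genotype is given for the pups. The labels name neither the transgene that drives tdTomato nor how many animals made a library, so p-values measure the spread between these libraries, which may be technical. Each library was made from 400 pg of RNA, and gene rows held 36252027 to 47084796 counts per library.

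The P12 and embryonic libraries carried different cell type markers. A list of 6 astrocyte markers summed to 7819 to 10287 CPM at P12, against 10.6 to 40.0 CPM in the embryo, where CPM is the count scaled to the normalised library size (TMM factors). The progenitor list of 11 genes summed to 3888 to 5072 CPM at P12 and to 319 to 408 CPM in the embryo. Slc1a3 held most of that sum at P12, with 2412 to 3435 CPM, against 1.09 to 19.4 CPM in the embryo. Pax6, Sox2, Hes1, Hes5 and Fabp7 were also higher at P12, while Nes, Vim, Hopx and Emx2 overlapped. Emx1 was lower, with 0.254 to 10.9 CPM at P12 and 35.9 to 43.3 CPM in the embryo. The neuron list of 8 genes summed to 359 to 967 CPM at P12 and to 2617 to 2984 CPM in the embryo. Tubb3, Dcx, Rbfox3 and Map2 were lower in every P12 library than in any embryonic one, and Stmn2 overlapped in normoxia. Gap43, Snap25 and Syt1 went the other way in normoxia. Gap43 had 465 and 313 CPM there and 54.2 to 63.1 CPM in the embryo. Syt1 had 130 and 58.6 CPM in normoxia and 0.194 to 14.3 CPM in the embryo. In hypoxia Snap25 and Syt1 stayed at or below 0.605 CPM, and Gap43 had 91.6 and 0.962 CPM. Microglial and endothelial lists stayed at or below 21.2 CPM in every library. Haemoglobin and other erythroid genes summed to 2238 and 7296 CPM at E13, to 20.1 and 85.5 CPM at E15 and to at most 4.31 CPM at P12. In bulk samples like these, fewer cells of a type and less RNA per cell cannot be told apart, and the part that these markers have in the results was not tested.

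Most mitochondrial mRNAs were lower at P12 in normoxia than in the embryo. By the quasi-likelihood test of edgeR, Benjamini-Hochberg adjusted over all 19936 genes tested, 6 of the 13 were called lower and 0 higher at an adjusted p under 0.05, beside 5.68% of all tested genes called lower. Unadjusted p-values under 0.05 were found for 9 of them, beside 33.6% of all genes. In 11 of the 13 both normoxic libraries lay below all 4 embryonic ones, beside 32.1% of all genes. Their median log2 fold change was -2.12, against -0.04 for all genes. The embryonic level used in this comparison is the mean of E13 and E15. The sum of the nuclear-retained RNAs Malat1, Neat1 and Meg3 was 1468 and 2195 CPM in normoxia and 679 to 924 CPM in the embryo. Meg3 made up most of this rise, with 1096 and 1293 CPM in normoxia and 16.1 to 42.9 CPM in the embryo. Neat1 had 120 and 168 CPM in normoxia and at most 1.25 CPM in the embryo. Malat1 did not rise, with 251 and 734 CPM in normoxia and 635 to 908 CPM in the embryo. The part of these RNAs in the results was not tested.

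mt-Co2, which encodes a catalytic subunit of complex IV, had 64.8 and 58.5 CPM in normoxia, against 723 and 661 CPM at E13 and 669 and 708 CPM at E15. It fell by 3.48 on the log2 scale (SE 0.20; edgeR adjusted p = 0.00043). mt-Co3, another core subunit of complex IV, had 277 and 223 CPM in normoxia, against 1388 and 1274 CPM at E13 and 1412 and 1539 CPM at E15, and fell by 2.49 (SE 0.20; edgeR adjusted p = 0.00102). In both genes the embryonic libraries lay within a narrow band several-fold above the P12 libraries, hypoxic ones included, which had 62.6 and 67.0 CPM of mt-Co2 and 271 and 219 CPM of mt-Co3. mt-Atp6, the membrane subunit of ATP synthase through which protons pass, had 149 and 161 CPM in normoxia, against 1274 and 1134 CPM at E13 and 1209 and 1262 CPM at E15. It fell by 2.97 (SE 0.23; edgeR adjusted p = 0.000888). mt-Nd1, a membrane subunit of complex I near its quinone site, had 219 and 152 CPM in normoxia, against 1122 and 1080 CPM at E13 and 1032 and 1082 CPM at E15, and fell by 2.54 (SE 0.23; edgeR adjusted p = 0.00172). These 4 mRNAs were called lower in each of the 19 alternative analyses, with adjusted p-values of at most 0.045.

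mt-Co1 and mt-Nd3 were also called lower. mt-Co1, which carries the oxygen-binding centre of complex IV, had 855 and 695 CPM in normoxia, against 1856 and 1525 CPM at E13 and 1553 and 1763 CPM at E15. Its fall of 1.11 (SE 0.23; edgeR adjusted p = 0.0255) was smaller than those of the other cytochrome oxidase mRNAs. mt-Nd3, a small subunit of complex I, was almost lost at P12, with 2 and 21 counts in normoxia and 1 and 20 counts in hypoxia, against 2995 to 3876 counts in the embryonic libraries. The normoxic level was 153 times lower than the embryonic one (95% counting interval 102 to 241, edgeR adjusted p = 0.0443). That interval leaves out the spread between libraries. The log2 fold change of mt-Nd3 was -6.49 without normoxic replicate 1 and -9.73 without normoxic replicate 2. Both calls were lost when any E13 or E15 library or either normoxic library was left out, the adjusted p then running to 0.152 for mt-Nd3 and 0.11 for mt-Co1.

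The reads of 7 mitochondrial mRNAs can also map to nuclear copies of mitochondrial DNA, and mt-Nd3 is shown here beside its copy because a single base separates them. The mRNA stretch lies at chrM:9459-9518 on the plus strand and the copy, Gm28438, at chr1:24613060-24613119 on the minus strand of GRCm38, both being given from the first base of the mRNA. Capitals mark the base that differs, T3C, counted from the 5′ end of mt-Nd3.
mt-Nd3: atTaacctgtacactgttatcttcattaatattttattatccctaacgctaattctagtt
Gm28438: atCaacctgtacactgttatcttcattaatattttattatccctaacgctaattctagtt
The copies of mt-Co2, mt-Atp6, mt-Co3, mt-Nd4 and mt-Nd4l had 0 mismatches over the aligned stretch, and mt-Nd1, mt-Nd2, mt-Nd5, mt-Nd6, mt-Atp8 and mt-Cytb had no copy row at 97% identity over 100 bases.

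For several of the mRNAs the copy row held about as many counts as the mRNA row. Gm28661 held 53.5% to 57.9% of the summed counts of itself and mt-Co2 in all 8 libraries, and Gm28437 held 50.6% to 55.9% for mt-Co3. Gm10925 held 55.8% to 56.9% for mt-Atp6 at P12 and 50.2% to 50.6% in the embryo. Gm28438 held 47.9% to 48.5% for mt-Nd3 in the embryo and 0% to 61.8% at P12, where both rows had few counts. The copies of mt-Co1 held 27.9% to 36.0% of the summed counts, that of mt-Nd4 18.6% to 27.0% and that of mt-Nd4l 60.9% to 85.1%. As a share of all counts, the sum of the 8 copy rows was 0.0809% to 0.0878% for P12 libraries and 0.559% to 0.62% for embryonic ones, so they were low and high in the same libraries as the mRNAs. With the copy rows added to their mRNAs, 5 of the 13 were called lower, mt-Nd3 being the call that was lost (edgeR adjusted p = 0.0646). mt-Nd1 is the called mRNA without a copy row.

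The 7 mitochondrial mRNAs that were not called did not all lie low. mt-Cytb, the one mitochondrial subunit of complex III, had 1796 and 2434 CPM in normoxia, against 1681 and 1466 CPM at E13 and 1739 and 1839 CPM at E15, and the libraries overlapped. Its log2 fold change was 0.33 (SE 0.17; edgeR adjusted p = 0.232), and -0.47 with library totals in place of TMM scaling. mt-Nd4, a proton-pumping subunit of complex I, had 401 and 297 CPM in normoxia, against 446 and 400 CPM at E13 and 455 and 473 CPM at E15, with a log2 fold change of -0.34. mt-Nd2, mt-Nd5, mt-Nd6, mt-Nd4l and mt-Atp8 each had both normoxic libraries below all embryonic ones, with log2 fold changes of -1.13, -1.44, -1.79, -3.06 and -2.12 in that order, and none passed the test. Of these, mt-Nd5 was uneven between hypoxic libraries, at 261 and 8.69 CPM, and so was mt-Nd4l, at 0.235 and 11.2 CPM. Reads from overlapping pairs, mt-Atp8 with mt-Atp6, mt-Nd4l with mt-Nd4 and mt-Nd5 with mt-Nd6 on the other strand, cannot be told apart where the genes overlap.

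**Figure D1:**
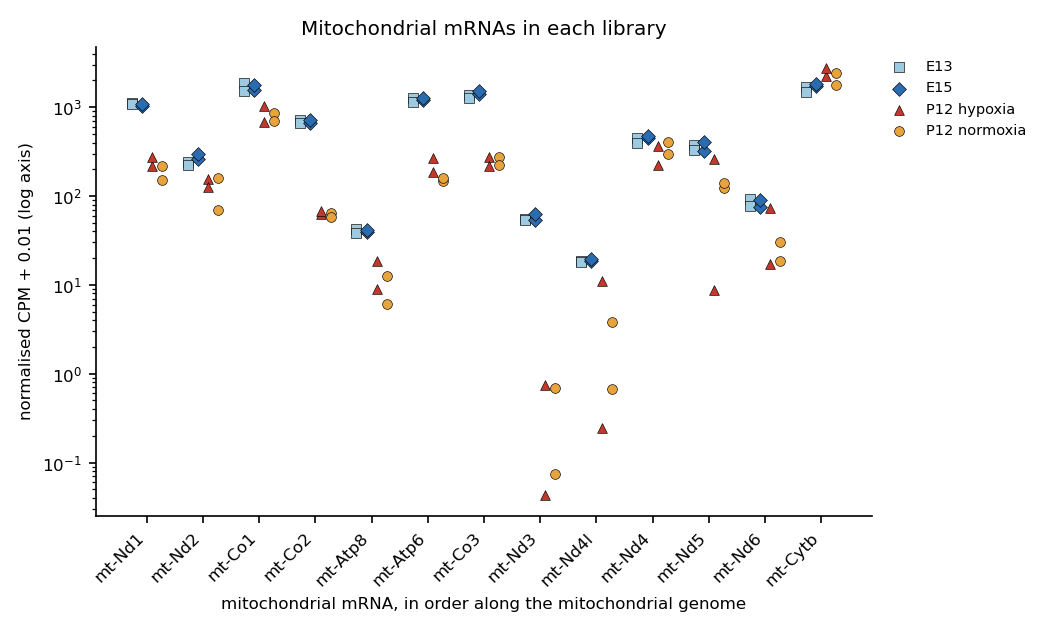
Normalised CPM plus 0.01 of the 13 mitochondrial mRNAs on a log axis, with 1 point per library and groups marked by colour and shape. mt-Cytb stays between 1466 and 2736 CPM in all libraries, while mt-Co2 lies at 58.5 to 67.0 CPM at P12 and at 661 to 723 CPM in the embryo.

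The order of the mitochondrial mRNAs by level per length therefore differed between the ages. In normoxia mt-Cytb led with 1849 CPM per kilobase, followed by mt-Co1 with 501 and mt-Co3 with 319, and mt-Nd3 was last with 1.07. In the embryo mt-Atp6 and mt-Co3 led with 1791 and 1790 CPM per kilobase, mt-Cytb followed with 1470 and mt-Nd1 with 1127, and mt-Nd4l was last with 62.9. The order depends on the copy rows. With them added, the embryonic level of mt-Co2 was 2179 CPM per kilobase and that of mt-Co1 1517, both above mt-Cytb, and mt-Nd6 was last with 162, below mt-Nd4l with 186. In normoxia mt-Cytb was first and mt-Nd3 last with the copies added too. As a share of all mitochondrial mRNA counts, mt-Cytb made up 50.8% and 53.3% in hypoxia, 44.1% and 56.9% in normoxia and 17.7% to 19.7% in the embryonic libraries. These shares cannot be shifted by the scaling between libraries, and with the copy rows counted in they were 34.2% to 45.9% at P12 and 11.9% to 13.2% in the embryo.

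Summed over the 13 genes, mitochondrial mRNAs took 0.346% and 0.328% of the counts in hypoxia and 0.278% and 0.362% in normoxia. The embryonic libraries gave 1.14% to 1.27%, on average 3.81 times the normoxic share, and 2.38 times over the 6 mRNAs without a copy row. Without mt-Cytb the other 12 mRNAs made up 0.153% to 0.17% at P12 and 0.942% to 1.04% in the embryo. The 2 mitochondrial ribosomal RNAs, mt-Rnr1 and mt-Rnr2, made up 0.0281% to 0.0366% at P12 and 0.101% to 0.112% in the embryo. Nuclear members together took 0.653% and 0.54% in hypoxia, 0.571% and 0.592% in normoxia and 0.936% to 1.01% in the embryo, where the embryonic mean was 1.69 times the normoxic one.

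**Figure D2:**
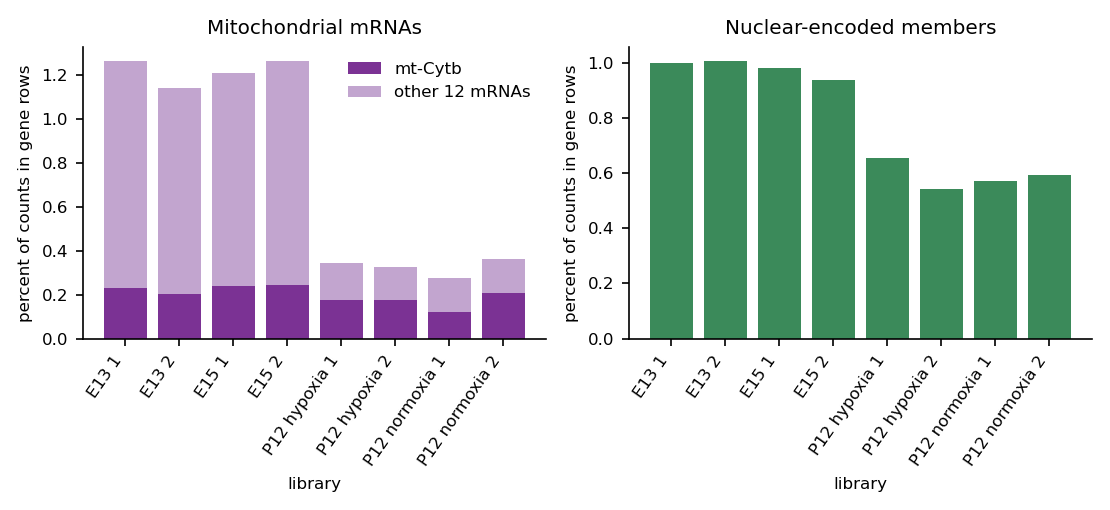
Percent of the counts in gene rows on mitochondrial mRNAs (left, mt-Cytb in dark purple and the other 12 in light purple) and on nuclear members (right), with 1 bar per library. The left bars reach 0.278% to 0.362% at P12 and 1.14% to 1.27% in the embryo, and the dark part takes up about as much as the light part at P12.

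Shorter mitochondrial mRNAs tended to lie further below the embryonic level. Across the 13 mRNAs the log2 fold change of normoxia over the embryo correlated with length at a Spearman rho of 0.69 and a Pearson r of 0.59, and with GC content at a rho of 0.07. All points share the same 6 libraries and some share reads, so this is a description without a test. Across the 88 nuclear members that passed the low-count filter, the correlation of the same fold change with exon length was -0.06.

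**Figure D3:**
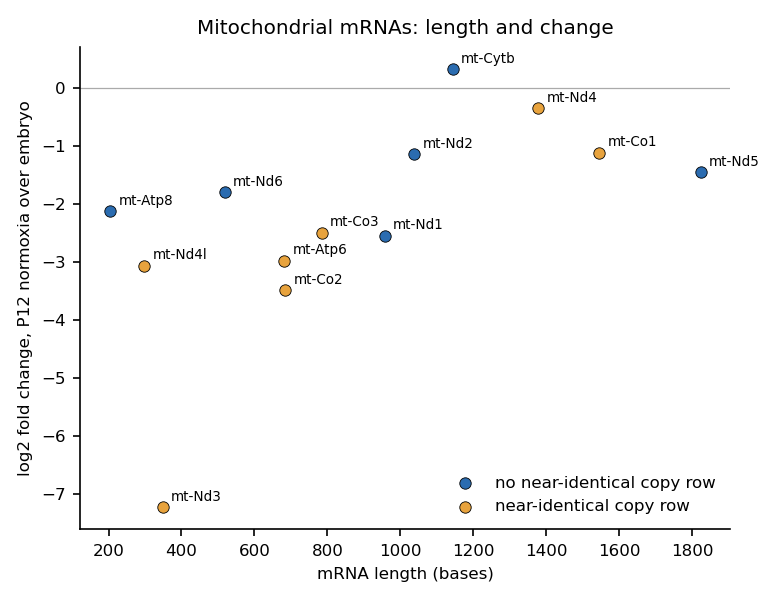
Log2 fold change of P12 normoxia over the embryo against mRNA length in bases for the 13 mitochondrial mRNAs, coloured by whether a near-identical copy row exists. mt-Nd3 lies lowest at -7.23 and mt-Cytb is the one point above 0, at 0.33.

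Nuclear members moved in both directions between P12 normoxia and the embryo. Of the 88 tested, 10 were called higher and 5 lower, beside 12.1% and 5.68% of all tested genes, so the shares called lie near those of all genes. Both normoxic libraries lay above all embryonic ones for 41 members and below them for 24, beside 27.3% and 32.1% of all genes. The median log2 fold change was 0.19, and 36 members had an unadjusted p under 0.05, beside 33.6% of all genes. The direction of the group rests on the scaling. With library totals in place of TMM factors, the median of all genes moved by -0.81. The median of the nuclear members then stood at -0.60, which is 0.26 above that of all genes. Of the 88 members, 3 were called higher and 11 lower with these totals, beside 19.1% of all genes called in either direction. Each of the 10 higher and 5 lower members kept its sign in every alternative.

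Complex I held 4 of the 10 called higher and 0 lower among its 36 members, beside 12.1% and 5.68% of all tested genes. Its median log2 fold change was 0.44. Ndufc1, a small accessory subunit of the membrane arm, had 315 and 165 CPM in normoxia, against 31.9 and 34.5 CPM at E13 and 32.8 and 32.2 CPM at E15. It rose by 2.87 on the log2 scale (SE 0.34; edgeR adjusted p = 0.0041), although 110 of its bases are 97.3% identical to the dynein light chain gene Dynll1. Ndufv3, an accessory subunit of the NADH-oxidising module, had 229 and 193 CPM in normoxia, against 64.6 and 64.3 CPM at E13 and 43.4 and 39.7 CPM at E15, and rose by 2.03 (SE 0.27; edgeR adjusted p = 0.00641). Ndufc1 was even across the embryonic libraries, while Ndufv3 was lower in both E15 libraries than in either E13 library. Ndufa7, another accessory subunit, had 292 and 198 CPM in normoxia and 61.6 to 66.9 CPM in the embryo, and rose by 1.93 (SE 0.26). Ndufv2, an iron-sulphur core subunit of the same NADH-oxidising module, had 296 and 228 CPM in normoxia and 135 to 143 CPM in the embryo, and rose by 0.91 (SE 0.20). Ndufv1 and Ndufs1, core subunits that carry the flavin and iron-sulphur clusters, did not pass. Ndufv1 had 153 and 89.7 CPM in normoxia and 105 to 111 CPM in the embryo, while Ndufs1 had 144 and 211 CPM in normoxia and 128 to 142 CPM in the embryo.

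The 8 complex I assembly factors included 1 call in each direction, beside 12.1% of all tested genes called higher and 5.68% called lower. Ndufaf8 had 46.3 and 27.0 CPM in normoxia and 9.37 to 11.9 CPM in the embryo, and rose by 1.84 (SE 0.47). Ndufaf4 was low at P12, with 2.10 and 6.03 CPM (66 and 185 counts) in normoxia, against 26.3 and 35.7 CPM at E13 and 40.0 and 34.0 CPM at E15. It fell by 3.06 (SE 0.74). The hypoxic libraries had still less Ndufaf4, at 0.168 and 0.185 CPM (5 and 5 counts).

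In complexes II and III, with 4 and 8 members, the 3 called members were all higher, though others leaned lower. Of all tested genes 12.1% were called higher and 5.68% lower. Sdhb, the iron-sulphur subunit of succinate dehydrogenase, had 383 and 337 CPM in normoxia and 149 to 161 CPM in the embryo, and rose by 1.22 (SE 0.22; edgeR adjusted p = 0.0187). Sdha, the flavoprotein beside it, had 366 and 332 CPM in normoxia and 195 to 254 CPM in the embryo and did not pass. Uqcrq, a small subunit of complex III, had 324 and 230 CPM in normoxia, against 44.9 and 52.1 CPM at E13 and 46.6 and 45.6 CPM at E15. It rose by 2.55 (SE 0.24; edgeR adjusted p = 0.00198). Uqcr11, another small subunit of complex III, had 156 and 105 CPM in normoxia and 49.2 to 54.5 CPM in the embryo, and rose by 1.34 (SE 0.28), with reads that could also fall on its pseudogene Gm16418. Uqcrc1 and Uqcrfs1, the core protein and the Rieske iron-sulphur protein of complex III, did not pass, at 377 and 333 CPM and at 170 and 145 CPM in normoxia, against 221 to 260 CPM and 115 to 142 CPM in the embryo. In 3 other members, named after their values were seen, both normoxic libraries lay below all embryonic ones without passing. Sdhd had 29.3 and 28.2 CPM in normoxia and 72.6 to 81.5 CPM in the embryo (edgeR adjusted p = 0.0502). Uqcrh had 21.8 and 18.2 CPM in normoxia and 57.7 to 65.6 CPM in the embryo, and Uqcrb 20.6 and 7.23 CPM in normoxia and 44.1 to 56.7 CPM in the embryo.

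Complex IV held members called in both directions, with 2 of its 16 tested higher and 3 lower, beside 12.1% and 5.68% of all tested genes. Its median log2 fold change was 0.04. Cox7c, a small subunit, had 104 and 91.4 CPM in normoxia and 35.6 to 40.6 CPM in the embryo, and rose by 1.40 (SE 0.31), its pseudogenes Gm12338 and Gm10012 together holding more counts than Cox7c itself. The 3 that fell are also small structural subunits. Cox6a1 had 39.7 and 20.8 CPM in normoxia and 136 to 158 CPM in the embryo, and fell by 2.30 (SE 0.44; edgeR adjusted p = 0.0216). Cox6b1 had 44.2 and 33.3 CPM in normoxia and 95.7 to 108 CPM in the embryo, and fell by 1.41 (SE 0.35). Cox8a had 6.38 and 23.5 CPM in normoxia and 84.8 to 108 CPM in the embryo, and fell by 2.65 (SE 0.66). All 3 were higher in every embryonic library than in any P12 library. Cox4i1, which is the common form of subunit 4, had 145 and 165 CPM in normoxia and 137 to 159 CPM in the embryo. Cox5a had 27.9 and 29.0 CPM in normoxia and 71.5 to 78.5 CPM in the embryo, and Cox6c 113 and 103 CPM in normoxia and 74.9 to 92.8 CPM in the embryo. None of these passed.

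Complex V had 1 call among 15 members, which was lower, beside 5.68% of all tested genes called lower. Atp5b, which encodes the catalytic beta subunit, had 278 and 234 CPM in normoxia, against 1198 and 1133 CPM at E13 and 1012 and 1026 CPM at E15, and fell by 2.09 (SE 0.48; edgeR adjusted p = 0.0362). Its partner in the catalytic head, Atp5a1 (alpha), had 297 and 187 CPM in normoxia and 476 to 560 CPM in the embryo and missed the threshold (edgeR adjusted p = 0.0639). The hypoxic libraries had 131 and 417 CPM of Atp5b and 157 and 271 CPM of Atp5a1, all below the embryonic values.

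**Figure D4:**
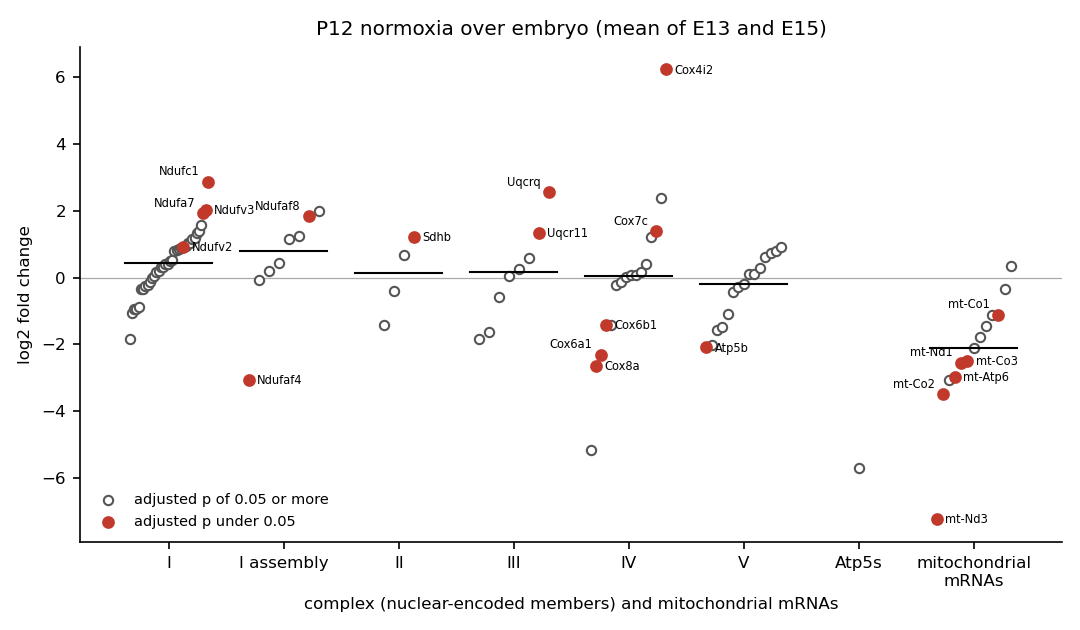
Log2 fold change of P12 normoxia over the embryo for the 88 nuclear members by complex and for the 13 mitochondrial mRNAs, with 1 point per gene, filled where called, and a line at each group's median. The medians of the nuclear complexes lie between -0.19 and 0.79, that of the mitochondrial mRNAs at -2.12.

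Few of these nuclear calls were stable. Across both genomes 21 members were called, and 6 of them were called in every alternative, namely Uqcrq and Ndufc1 among the nuclear members and mt-Co2, mt-Atp6, mt-Co3 and mt-Nd1. Each fit without one embryonic library, whether from E13 (replicates 1 and 2) or from E15 (replicates 1 and 2), lost all the other calls. Leaving out normoxic replicate 1 or 2 lost some of them. Calls over all genes also fell in each of these fits, so the loss is not particular to the members. All 21 kept their direction in every alternative. Leaving out hypoxic replicate 1 or 2, which are not in the comparison but share its estimate of spread, raised the nuclear count to 33 or 35, while the count over all genes became 5990 or 5831, against 3541 with all libraries.

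Tissue isoforms were mostly silent, and 1 of them was called. Cox4i2, the form of subunit 4 known from lung, had 97 and 49 counts in normoxia and 163 and 67 in hypoxia, against 0 to 10 counts in the embryonic libraries. The normoxic level was 49.3 times the embryonic one (95% counting interval 26.8 to 101, edgeR adjusted p = 0.0474), though still low, at 2.97 CPM per kilobase beside 99.8 for Cox4i1. That interval leaves out the spread between libraries, and the log2 fold change of Cox4i2 ran from 5.54 to 8.60 when 1 library was left out. Rgs5, a marker of mural cells, moved the same way, with 2501 and 1906 CPM in normoxia, 1241 and 1021 CPM in hypoxia and 0 in the embryo, and so did Pdgfrb, with 21.9 and 72.0 CPM in normoxia, 34.5 and 0.629 CPM in hypoxia and at most 2.37 CPM in the embryo. Of the other 3 markers of the mural list, Kcnj8 and Abcc9 were at 0 in every P12 library and Acta2 stayed at or below 1.11 CPM, and the part of mural cells in the result was not tested. Cox6a2, Cox7b2, Cox8b and Cox8c, forms known from muscle or testis, were the 4 members below the filter. Cox6b2, known from testis, had at most 2 counts in any P12 library and 0.418 to 2.85 CPM in the embryo. Ndufa4l2 stayed at or below 3.51 CPM in all libraries, beside 95.1 to 191 CPM for Ndufa4. Among the genes for the identical c subunit of the ATP synthase ring, Atp5g3 had the highest level per length, at 50.1 CPM per kilobase in normoxia and 67.7 in the embryo, against 2.93 and 3.36 for Atp5g1 and 1.60 and 6.49 for Atp5g2. These levels leave out near-identical pseudogene rows, which over all libraries held 329% of the counts of Atp5g1 (Gm10039) and 191% and 223% of those of Atp5g2 (Gm10175 and Gm10231), so the order is uncertain.

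Promoters are shown for 4 of the 15 called nuclear members, which moved in opposite directions while holding the same known letter pattern. NRF1, a transcription factor known to act on many nuclear genes of respiration, binds the letters GCGCATGC (GCATGCGC on the other strand). Of the 76 nuclear members with a RefSeq promoter on GRCm38.p6, 12 held these letters (15.8%), against 3.05% of 27025 genes. A gene was counted where any of its promoters held them, from 250 bases before the start to 50 after it. Among those 12, 2 were called higher and 2 lower in normoxia than in the embryo. Here and for the letters below, 12.1% of all tested genes were called higher and 5.68% lower. These 4 are printed with the letters in capitals, 5′ to 3′ on the strand of the gene. The printed part runs from 170 bases before the start to 20 after it. Sdhb and Uqcr11 rose, and Cox6a1 and Ndufaf4 fell.
Sdhb: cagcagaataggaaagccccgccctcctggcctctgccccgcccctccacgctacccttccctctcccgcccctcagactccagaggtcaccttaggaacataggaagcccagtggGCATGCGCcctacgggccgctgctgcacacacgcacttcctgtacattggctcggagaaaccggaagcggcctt
Uqcr11: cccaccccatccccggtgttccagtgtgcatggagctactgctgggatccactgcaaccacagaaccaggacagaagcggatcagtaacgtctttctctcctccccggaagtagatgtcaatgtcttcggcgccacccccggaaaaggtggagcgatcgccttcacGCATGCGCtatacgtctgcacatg
Cox6a1: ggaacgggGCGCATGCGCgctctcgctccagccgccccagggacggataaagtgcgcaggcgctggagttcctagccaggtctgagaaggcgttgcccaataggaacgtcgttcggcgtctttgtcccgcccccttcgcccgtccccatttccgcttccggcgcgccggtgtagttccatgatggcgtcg
Ndufaf4: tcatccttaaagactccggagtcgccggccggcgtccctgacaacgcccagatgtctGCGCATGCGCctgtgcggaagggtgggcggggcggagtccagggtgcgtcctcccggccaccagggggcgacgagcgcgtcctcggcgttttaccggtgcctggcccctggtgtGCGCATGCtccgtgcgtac
The stretches lie at chr4:140961101-140961290 (plus strand), chr10:80406802-80406991 (minus), chr5:115348939-115349128 (minus) and chr4:24897913-24898102 (plus). The letters began 54 bases before the RefSeq start of Sdhb and 4 bases before that of Uqcr11, while by the GENCODE gene bounds, which start further upstream, they lie inside both genes. In Cox6a1 and Ndufaf4 the pattern overlapped its own reverse complement. The ETS letters CCGGAAG were found in 18 of 76 members (23.7%, against 9.93% of the 27025 genes), of which 3 were called higher and 3 lower. The YY1 letters AAGATGGCG were found in 8 (10.5%, against 1.64%), of which 2 were called higher and 0 lower. A match describes letters in the searched window and is not a measured binding site.

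Between hypoxia and normoxia at P12, 0 of 13 mitochondrial mRNAs were called, beside 3.02% of all tested genes. DESeq2 on all libraries also called 0, and 1 had an unadjusted edgeR p under 0.05. That was mt-Atp6, with 188 and 270 CPM in hypoxia and 149 and 161 CPM in normoxia. Its log2 fold change was 0.56 (SE 0.22; edgeR adjusted p = 0.27). The median log2 fold change of the 13 was 0.23, against 0 for all genes. In 2 of them the hypoxic pair was above the normoxic pair without overlap, beside 13.1% of all genes. Without hypoxic replicate 1, 2 were called, 1 higher and 1 lower, beside 13.5% of all genes.

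Of the 88 nuclear members tested, 0 were called higher after hypoxia and 1 lower, beside 0.196% and 2.82% of all genes. Their median log2 fold change was 0.007. The hypoxic pair was wholly above the normoxic pair for 14 members and wholly below it for 16, beside 13.1% and 20.1% of all genes, and 9 members had an unadjusted p under 0.05, beside 18.2% of all genes. Several marker lists also differed without overlap. Oligodendrocyte markers summed to 1157 and 1969 CPM in hypoxia and 201 and 589 CPM in normoxia, and oligodendrocyte progenitor markers to 873 and 1492 CPM in hypoxia and 456 and 315 CPM in normoxia. Neuron markers summed to 359 and 687 CPM in hypoxia and 967 and 851 CPM in normoxia, mural markers to 1275 and 1023 CPM in hypoxia and 2523 and 1978 CPM in normoxia, and nuclear-retained RNAs to 573 and 467 CPM in hypoxia and 1468 and 2195 CPM in normoxia. Of the nuclear-retained RNAs, Meg3 had 52.1 and 36.4 CPM in hypoxia and 1096 and 1293 CPM in normoxia, while Malat1 and Neat1 overlapped. Within the neuron list Tubb3 and Dcx overlapped. Map2 was higher in hypoxia, with 177 and 310 CPM, against 80.3 and 151 CPM in normoxia. The part of these lists in the results was not tested. Medians by complex ran from -0.80 for the assembly factors to 0.37 for complex III. As examples of core subunits, Cox4i1 had 159 and 152 CPM in hypoxia and 145 and 165 CPM in normoxia, and Ndufv2 had 317 and 318 CPM in hypoxia and 296 and 228 CPM in normoxia.

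The member called lower was Ndufaf6, an assembly factor of complex I. It had 0 counts in both hypoxic libraries, against 1443 and 811 counts, or 45.8 and 26.4 CPM, in normoxia, which makes it at least 341-fold lower at a floor of 3 counts per library (edgeR adjusted p = 0.0228). The embryonic libraries had 12.1 to 17.1 CPM. The call was lost in each fit that left out one of the 4 embryonic libraries, E13 replicates 1 and 2 and E15 replicates 1 and 2 (adjusted p from 0.151 to 0.155), in limma-voom (0.386) and when edgeR was given just the P12 libraries (0.341). Each of these fits called 0 of all genes tested. DESeq2 on the P12 libraries kept it (adjusted p = 1.55e-07). Of the next 3 by p, none called, Cox7a1, the muscle form of a complex IV subunit, had 0 counts in hypoxia and 143 and 40 in normoxia, at least 27.6-fold lower (edgeR adjusted p = 0.0544). Ndufaf4 had 0.168 and 0.185 CPM in hypoxia and 2.10 and 6.03 CPM in normoxia, a log2 difference of -4.50 (SE 0.85; edgeR adjusted p = 0.0563). Sdhd, a membrane anchor of complex II, had 58.1 and 91.9 CPM in hypoxia and 29.3 and 28.2 CPM in normoxia, a log2 difference of 1.38 (SE 0.41; edgeR adjusted p = 0.178). Leaving out hypoxic replicate 1 gave 12 nuclear calls, beside 13.5% of all genes, and leaving out hypoxic replicate 2 gave 3, beside 7.75%. The same for normoxic replicates 1 and 2 gave 2 and 4, beside 4.14% and 4.49%.

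**Figure D5:**
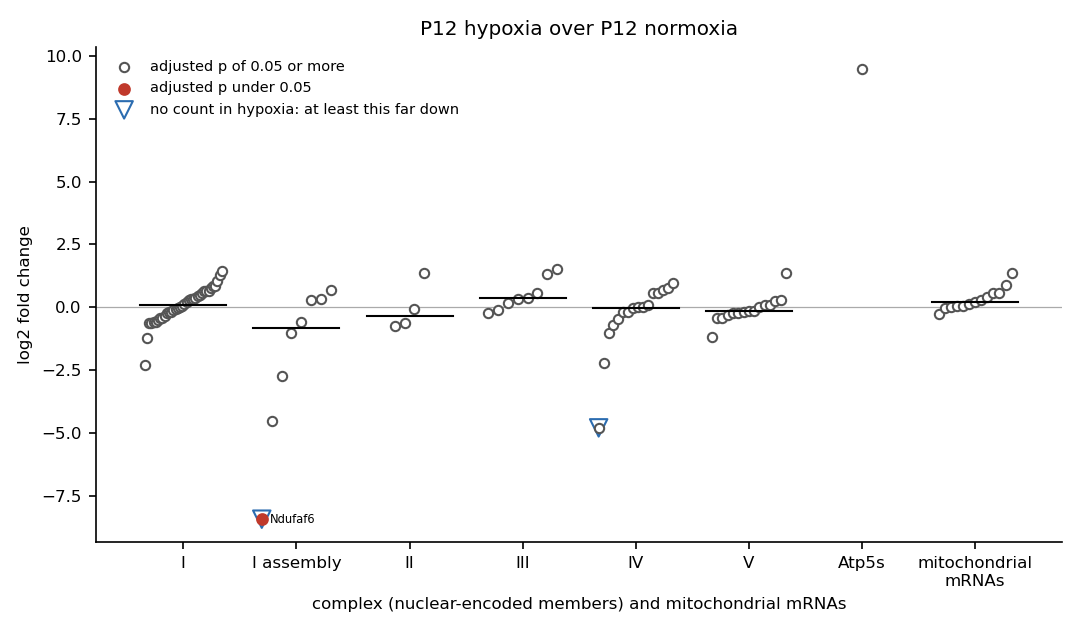
Log2 fold change of P12 hypoxia over P12 normoxia by complex for nuclear members and for mitochondrial mRNAs, with 1 point per gene, filled where called, and a line at each group's median. Genes with no count in hypoxia are drawn at their lower bound, and most other points lie close to 0.

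Several members dropped out of single P12 libraries. Of the 87 nuclear members with at least 10 counts in every embryonic library, 5 and 7 had under 10 counts in the hypoxic libraries and 4 and 2 in the normoxic ones. Among all genes with that embryonic count the shares were 28.3% and 32.5% in hypoxia and 21.8% and 13.8% in normoxia, and among the members they were 5.75% and 8.05% in hypoxia and 4.60% and 2.30% in normoxia. Ndufs4, an accessory subunit of complex I, had 778 and 5 counts in hypoxia and 3048 and 1000 in normoxia. Ndufaf5, an assembly factor, had 169 and 0 counts in hypoxia and 565 and 616 in normoxia. Ndufa9, a complex I subunit near the quinone site, had 2466 and 1490 counts in hypoxia and 2 and 2036 in normoxia. Atp5s, named after a coupling factor of ATP synthase, had 1 and 6157 counts in hypoxia and 8 and 2 in normoxia. These were singled out after their values had been seen. Replicate libraries differed by over 1 on the log2 scale for 22 of the 88 nuclear members in hypoxia and for 13 in normoxia, against 0 at E13 and 0 at E15, while for all tested genes the shares were 40.6%, 38.8%, 4.49% and 3.16%.

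Between E15 and E13, 0 members of either genome were called, as were 0 of 19936 genes (0%), with 690 genes (3.46%) at an unadjusted edgeR p under 0.05. None of the members was among those 690, and DESeq2 on all 8 libraries called 0 members, beside 1.87% of all genes. limma-voom and DESeq2 on the embryonic libraries alone each called 1 nuclear member lower, beside 4.69% and 12.5% of all genes called. The smallest p was that of Ndufv3, with 43.4 and 39.7 CPM at E15 and 64.6 and 64.3 CPM at E13 and a log2 fold change of -0.63 (SE 0.32). Cox6b2 had 0.881 and 0.418 CPM at E15 and 2.04 and 2.85 CPM at E13, and Ndufa4l2 had 0.951 and 0.900 CPM at E15 and 2.41 and 3.51 CPM at E13. Cox4i2 had 0 and 10 counts at E15 and 1 and 0 at E13. The E15 libraries lay wholly above the E13 ones for 22 nuclear and 4 mitochondrial members and wholly below for 19 and 0, beside 23.6% and 25.8% of all genes. The median log2 fold changes were 0.02 for the nuclear and 0.04 for the mitochondrial members, and erythroid genes differed between these stages as given above.

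Other genes of the pathway were described from lists outside the naming rule. The 8 electron carriers and dehydrogenases that feed the chain all had both normoxic libraries above all embryonic ones, beside 27.3% of all genes, with 2 called higher, beside 12.1%, and a median log2 fold change of 1.11. Etfa, a subunit of the electron transfer flavoprotein, had 223 and 150 CPM in normoxia and 35.0 to 40.7 CPM in the embryo and rose by 2.28 (SE 0.26; edgeR adjusted p = 0.00398). Gpd2, the mitochondrial glycerol-3-phosphate dehydrogenase, had 72.0 and 78.6 CPM in normoxia and 6.59 to 18.6 CPM in the embryo, and rose by 2.55 (SE 0.50). Of 41 tested assembly factors, 7 were called higher and 1 lower, beside 12.1% and 5.68% of all genes. Cox17, a copper chaperone for complex IV, had 297 and 239 CPM in normoxia and 6.27 to 9.55 CPM in the embryo, and rose by 5.09 (SE 0.39; edgeR adjusted p = 0.000924). Coa3, another complex IV assembly factor, had 222 and 254 CPM in normoxia and 47.1 to 49.7 CPM in the embryo, and rose by 2.30 (SE 0.25). The other higher ones were Uqcc2, Cox11, Ttc19, Atpaf1 and Cox20, and Sco1, also a copper chaperone of complex IV, had 1.02 and 3.26 CPM in normoxia and 17.8 to 21.0 CPM in the embryo, and fell by 3.21 (SE 0.83).

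Of 32 genes for the copying, transcription and processing of mitochondrial DNA and RNA, 2 were called higher and 1 lower in normoxia than in the embryo, fewer by share than the 12.1% and 5.68% of all genes. Tbrg4, a protein that acts on mitochondrial RNA, had 89.5 and 44.5 CPM in normoxia and 5.35 to 8.89 CPM in the embryo, and rose by 3.25 (SE 0.45). Polg2, the accessory subunit of the mitochondrial DNA polymerase, had 35.9 and 42.6 CPM in normoxia and 3.18 to 5.99 CPM in the embryo, and rose by 3.27 (SE 0.79). Supv3l1, an RNA helicase of mitochondrial RNA decay, had 1.21 and 0.0978 CPM in normoxia, against 25.04 and 27.8 CPM at E13 and 36.8 and 27.7 CPM at E15, and fell by 5.48 (SE 1.38). In the tricarboxylic acid cycle, Idh3a, a subunit of isocitrate dehydrogenase, was the 1 gene called of 16, against the same 12.1%, and rose by 1.14 (SE 0.23). None of 8 regulators of mitochondrial biogenesis was called (2 at an unadjusted edgeR p under 0.05, beside 33.6% of all genes).

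After hypoxia, 4 of the 41 assembly factors were called lower and 0 higher, beside 2.82% of all genes called lower. Tmem70, which acts in ATP synthase assembly, had 0.101 and 0.037 CPM in hypoxia and 37.8 and 25.4 CPM in normoxia (edgeR adjusted p = 0.0195). Sdhaf4, an assembly factor of complex II, had 0.0673 and 0.037 CPM in hypoxia and 12.03 and 36.9 CPM in normoxia (edgeR adjusted p = 0.0232). Coa7 and Dmac1, assembly factors of complexes IV and I, were likewise at or below 0.148 CPM in hypoxia, against 4.50 to 23.7 CPM in normoxia. Ptcd1, which acts on mitochondrial RNA, had 0.101 and 0.111 CPM in hypoxia and 4.10 and 12.2 CPM in normoxia, and Gabpa, a subunit of the ETS factor that acts on respiratory genes, had 0.202 and 0.998 CPM in hypoxia and 47.2 and 35.4 CPM in normoxia. These 6 calls, and that of Ndufaf6, rest on near absence from both hypoxic libraries, and edgeR on the P12 libraries alone called none of them, while DESeq2 on those libraries called all 7.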

How the data were processed

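Raw counts per gene, 1 file per library, were deposited by the authors. The submitters' processing notes name cutadapt, STAR, Subread and the GRCm38 build. How multiply mapping reads and strand were treated, and which versions and annotation release were used, is not given in the sources used here. Each file held 55487 rows, of which 1980 named no gene (0.205% to 0.266% of counts) and were left out. The 105 members were matched to GENCODE M21 on GRCm38.

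Tests used edgeR 4.0.16 in R 4.3.3 on the counts of all 8 libraries: TMM scaling, filterByExpr (minimum count 10, minimum total 15), 1 quasi-likelihood fit of 4 groups with 4 residual degrees of freedom, two-sided, Benjamini-Hochberg adjustment over 19936 genes, threshold 0.05. The SE was computed from the F statistic. CPM uses the TMM-normalised library size. Copies were sought with BLAST 2.17.0. Counting intervals (95%) and the floor of 3 counts take in no error but that of counting, because reads that lack molecular identifiers may repeat a molecule. Alternatives used DESeq2 1.42.0 and limma 3.58.1. The pipeline was tested on simulated data in which each gene had the same spread in all 8 libraries. Most changed genes had the right sign and no unchanged gene was called, but almost none of the changed genes passed the threshold. The real P12 replicates differ more than the embryonic ones, so the simulated share that passed need not be that of these data. Since changed genes went uncalled in the simulation, a count of 0 calls does not show that nothing changed. Figures used matplotlib 3.10.9, tables pandas 2.3.3 and scipy 1.17.1, in Python 3.11.15 with numpy 2.4.6.

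The members and lists were chosen with earlier results of these data known. Named were all mitochondrial mRNAs, per comparison up to 10 called nuclear members of smallest p in each direction (the 4 of smallest p where fewer than 4 were called), core subunits and isoforms, and the called genes of the other lists. The level of 1 core subunit is not reported here.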

Additional observations from a re-analysis of the deposited data

How the results depend on the processing

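Limits. With 2 libraries a group, calls rest on a spread shared by all 8 libraries, and P12 replicates differ far more than embryonic ones. Where a group was left with 1 library it was assumed to vary like the others. Depth was similar across libraries, and few counts limit genes such as mt-Nd3, Cox4i2 and Cox7a1. Genes with at least 10 counts numbered 11695 to 16468 in the P12 libraries and 17520 to 18318 in the embryonic ones. TMM factors were 0.639 to 0.848 at P12 and 1.32 to 1.38 in the embryo. Loss from single P12 libraries also reached members with many counts in the replicate library, such as Atp5s, with 1 and 6157 counts in hypoxia.

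Nuclear calls between hypoxia and normoxia numbered 13 in DESeq2 (8 higher), which called 3981 of 19936 genes, and 0 in limma-voom, which called 0 of all genes. They numbered 2 with at least 5 CPM in 2 libraries and 2 with library totals, beside 5.47% and 3.31% of all genes. The replicate block gave 0 and the compared groups alone gave 0 (1 and 0 of all genes). DESeq2 on the compared groups gave 2 (9.19% of all genes). Leaving out 1 library gave 0 to 12 nuclear and 0 to 2 mitochondrial calls. Nuclear calls between normoxia and the embryo numbered 38 in DESeq2, 7 without a low-count filter, 6 with the replicate block, 38 in the compared groups alone and 56 in DESeq2 on those groups, where 36.4%, 8.05%, 8.55%, 34.4% and 48.7% of all genes were called in the same order, with 2 to 35 when 1 library was left out. Mitochondrial calls there numbered 4 with the replicate block, 10 in the compared groups alone and 11 in DESeq2 on those groups (1 of them, mt-Cytb, higher), with 4 to 9 when 1 library was left out. Nuclear calls between E15 and E13 numbered 1 in limma-voom and 1 in DESeq2 on the embryonic libraries, beside 4.69% and 12.5% of all genes. With library totals the medians between normoxia and the embryo were -0.60 (nuclear) and -2.89 (mitochondrial), and mt-Cytb turned to -0.47. limma-voom moved the median of all genes by -0.35 there and by -0.24 between hypoxia and normoxia. The mitochondrial median between E15 and E13 ran from -0.0305 to 0.13 when 1 library was left out, and the log2 fold change of Cox4i2 ran from -1.98 (without E15 replicate 2) to 4.82. The embryonic share of mitochondrial mRNAs over the normoxic one was 2.33 for 7 mRNAs listed beforehand as free of copies, 3 of which proved to have one, and 2.38 for the 6 without a copy row. The other 193 recomputed counts, medians and share ratios stayed within 1.5 times or the replicate spread.

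Replicate numbers share only a number. Deviations of equally numbered libraries correlated at -0.04 to 0.01 over 6 pairs of groups, so no pairing entered the main fit. DESeq2 and share variants on other sets, library totals and the addition of copy rows were chosen after seeing the data. The cause of the changes above was not tested.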
